A study of Mus musculus with 2 samples.

Results

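A set of 10 cathepsin genes of macrophages and lung, Ctsa, Ctsb, Ctsc, Ctsd, Ctse, Ctsh, Ctsk, Ctsl, Ctss and Ctsz, was followed in mouse lung RNA, out of 22072 genes in the deposited tables. Members were the 10 genes whose symbol in both tables equalled one of these names. They were chosen by their FPKM values in these same pools, so their levels and ratios are given as a description, with no test. The control pool held lung RNA of mice with Foxf1 fl/fl alleles, in which loxP sites flank part of the forkhead transcription factor gene Foxf1. The knockout pool held lung RNA of mice with Pdgfb-iCreER / FoxF1 fl/fl, the same alleles plus a tamoxifen-inducible Cre recombinase under control of Pdgfb, a gene active in endothelial cells. Mice of both groups had the C57/BL6 background, and the RNA of each group came from several mice combined into 1 pool. The age of the mice and the tamoxifen schedule are not given in the sources. The control mice carried no Cre, so an effect of Cre itself cannot be told apart from one of reduced Foxf1.

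Cathepsins are proteases that work mostly in the acid interior of lysosomes. They are made as inactive proenzymes, tagged with mannose 6-phosphate, sorted to lysosomes and activated there by cleavage. Cathepsins B, C, H, K, L, S and Z use a cysteine in the active site, cathepsins D and E a pair of aspartates, and cathepsin A is a serine carboxypeptidase. In the lung, macrophages hold large amounts of several of them, and alveolar type 2 cells use cathepsin H in the processing of surfactant proteins. Cathepsin S trims the invariant chain of MHC class II in antigen-presenting cells, cathepsin C activates granule proteases of leukocytes, and cathepsin K, best known from osteoclasts, degrades collagen and elastin.

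Each group was 1 library, so every difference lacks a replicate check and the spread between mice is not known. Depth was about 13.2 M transcript reads for controls and 10.4 M for knockouts. Levels are FPKM, fragment counts divided by transcript length and by library size, summed over the transcripts of a gene. Intervals in brackets are 95% intervals for counting error alone. Foxf1, listed as Foxf1a, had 72.1 FPKM in control and 15.7 in knockout lungs, 4.59-fold lower (3.97 to 5.34). It is not known here whether the listed transcript includes the deleted part. In whole-lung RNA, more cells of a type and more RNA per cell cannot be told apart.

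The cathepsins that stood 1.5-fold or more above the control level were 4, Ctsk, Ctsd, Ctsz and Ctss, and the sequences upstream of their transcription starts are shown because these genes carry most of the difference between the pools. Each run is the 250 bases before the start, 5′ to 3′ on the gene's strand, from RefSeq on GRCm38.p6, a later build than the mm9 of the deposited tables. Capitals mark CACGTG, the core of the element through which the MiT/TFE factors act on many lysosomal genes, and TAAACA or its reverse complement TGTTTA, a core of forkhead sites.
Ctsk promoter, chr3:95498960-95499209 (plus strand): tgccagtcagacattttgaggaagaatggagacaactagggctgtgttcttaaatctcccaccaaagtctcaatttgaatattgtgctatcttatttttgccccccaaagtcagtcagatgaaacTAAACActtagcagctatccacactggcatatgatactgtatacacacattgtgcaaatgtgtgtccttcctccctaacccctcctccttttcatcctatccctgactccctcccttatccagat
Ctss promoter, chr3:95526536-95526785 (plus strand): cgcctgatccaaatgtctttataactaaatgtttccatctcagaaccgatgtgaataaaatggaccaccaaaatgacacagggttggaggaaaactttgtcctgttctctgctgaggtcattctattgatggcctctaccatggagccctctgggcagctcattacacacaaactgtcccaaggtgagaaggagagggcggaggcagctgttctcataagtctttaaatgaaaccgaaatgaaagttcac
Ctsd promoter, chr7:142387828-142388077 (minus strand): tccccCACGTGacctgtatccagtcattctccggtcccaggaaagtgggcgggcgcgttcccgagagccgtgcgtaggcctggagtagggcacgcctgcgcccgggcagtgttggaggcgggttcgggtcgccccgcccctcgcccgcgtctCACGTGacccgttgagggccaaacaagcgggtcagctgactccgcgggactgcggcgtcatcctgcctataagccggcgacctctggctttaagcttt
Ctsz promoter, chr2:174439040-174439289 (minus strand): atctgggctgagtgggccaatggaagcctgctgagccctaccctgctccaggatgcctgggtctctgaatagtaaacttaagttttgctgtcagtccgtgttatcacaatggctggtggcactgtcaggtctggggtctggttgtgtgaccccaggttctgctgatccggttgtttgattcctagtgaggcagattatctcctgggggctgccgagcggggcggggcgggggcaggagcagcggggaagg
The Ctsd window held CACGTG at 98 and at 245 bases before the start, and the nearer match lies inside the longer palindrome TCACGTGA. The windows of Ctsk, Ctss and Ctsz did not hold CACGTG. The Ctsk window held TAAACA once, 125 bases before the start. Promoter windows were matched for 7 of the 10 cathepsins, with 8 windows in all. CACGTG was in 3 of the 8, those of Ctsd, Ctsl and one of the pair for Ctsa, against 6.02% of all 32851 windows, and the Ctsl and Ctsa windows that held it lie inside the annotated span of the gene. TAAACA was in 2 of the 8, those of Ctsk and Ctsl, against 12.03% of all windows. TCACGTGA was in 2 of the 8 windows and 0.785% of all. Of further motifs searched on both strands, the AP-1 sequence TGACTCA was in 0 of the 8 windows and 4.46% of all, and the PU.1 sequence GAGGAAGT in 1 of the 8, that of Ctsc, and 2.44% of all. The motifs were picked with some of these sequences in view, and a match is only a match of letters.

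Together the 10 cathepsins had 911 FPKM in control and 1299 in knockout lungs, 0.244% and 0.345% of all FPKM. The sum was 1.43-fold higher in knockouts, and 1.37-fold higher with Ctsk left out. Ctsd alone made up 38.1% of the summed difference, Ctsk 13.4%, Ctss 13.2%, Ctsb 10.1% and Ctsz 10.02%. Of the 9 members with a mean of 1 FPKM or more, 4 were at least 1.5-fold higher on the log2(FPKM + 1) scale, where 9.41% of the 12929 genes over the same floor were that much higher. None of the 9 was 1.5-fold lower, against 4.63% of all genes. Since the choice of members used this comparison, nothing is read from these shares. The median log2 ratio of the 9 was 0.51, and that of all genes 0.05. Under a scaling to the total without the 100 most abundant genes, Ctsk alone stayed past 1.5-fold, with Ctsd at 0.58, Ctsz at 0.57 and Ctss at 0.54 on the log2 scale, just under the log2 of 1.5.

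**Figure D1:**
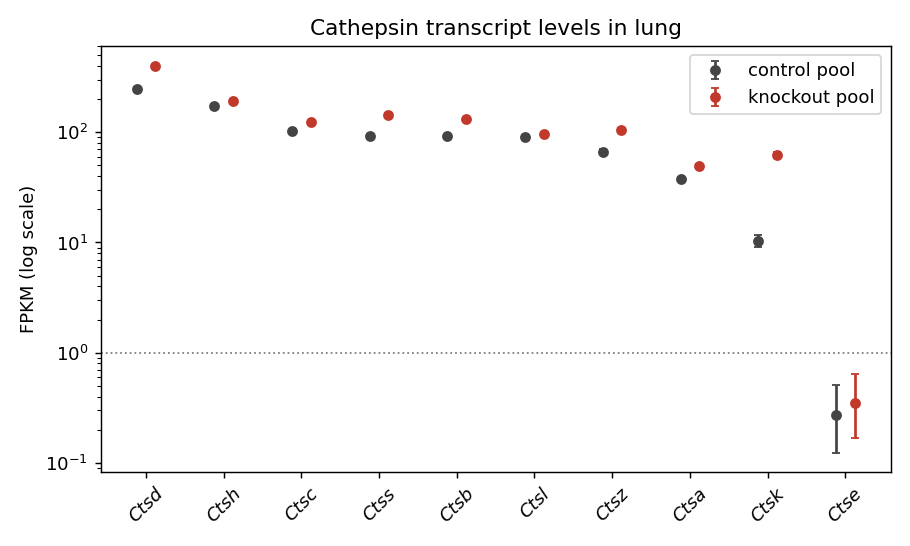
FPKM of each cathepsin on a log axis in the control pool (grey) and the knockout pool (red), with bars for 95% counting intervals and a dotted line at 1 FPKM. All 10 points of the knockout pool lie above those of the control pool, with Ctsk farthest apart and Ctse, at 0.271 and 0.351 FPKM, within its counting error.

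Cathepsin K, the collagen- and elastin-degrading enzyme, differed most. Ctsk had 10.3 FPKM in control and 62.2 in knockout lungs, from about 252 and 1177 reads. Its level was 6.04-fold higher in knockouts (5.27 to 6.95), and its interval did not meet that of any other cathepsin over the floor. Among the 12929 genes, its log2 ratio of 2.48 was the 54th highest. Genes that were at least 2-fold higher made up 3.75% of all genes, and Ctsk was the sole cathepsin among them.

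Ctsk lies on chromosome 3 from 95303208 to 95313284 (mm9), and Ctss from 95330708 to 95360325, with 17423 bases between them. Ctss encodes the endoprotease of antigen-presenting cells that works also at neutral pH. It had 92.3 FPKM in control and 143.5 in knockout lungs, 1.56-fold higher (1.47 to 1.65). Within 100 kb of this pair the tables list 6 other genes, 4 of them over the floor. None of these 4 differed by 1.5-fold. Arnt, the neighbour of Ctsk, had 18.1 and 17.1 FPKM in the control and knockout pools. Arnt encodes a partner of the dioxin receptor and of hypoxia-inducible factors. Golph3l, a Golgi protein gene beyond Ctss, had 14.3 and 12.4 FPKM, Ensa, a phosphatase inhibitor gene, had 43.6 and 46.9, and Gm4349 had 1.83 and 2.65. These neighbours were named after their values were seen.

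Cathepsin D, the main aspartic protease of lysosomes, was the most abundant member in both pools. Ctsd (chromosome 7, 149561821 to 149573775) had 249.3 FPKM in control and 397.0 in knockout lungs, 1.59-fold higher (1.55 to 1.64). By mean level it ranked 118th of all 12929 genes. Cathepsin Z removes single residues from the C terminus of proteins. Ctsz (chromosome 2, 174252995 to 174264493) had 66.4 and 105.2 FPKM, 1.59-fold higher (1.48 to 1.70). The counting intervals of Ctsd, Ctsz and Ctss overlapped one another.

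Cathepsin B, an abundant endo- and exopeptidase, lay just under the 1.5-fold line. Ctsb (chromosome 14, 63741302 to 63764758) had 91.6 FPKM in control and 130.9 in knockout lungs, 1.43-fold higher (1.38 to 1.48). Cathepsin A protects beta-galactosidase and neuraminidase 1 in a lysosomal complex. Ctsa (chromosome 2, 164658373 to 164666532) had 37.6 and 49.8 FPKM, 1.32-fold higher (1.249 to 1.40). It was the member with more than 1 transcript in the tables. The longer of its 2 transcripts, of 3674 bases, held 65.2% of its FPKM in control and 62.8% in knockout lungs, and the other, of 3547 bases, the rest. Its partners Neu1 (7.96 and 9.47 FPKM) and Glb1 (8.28 and 10.1 FPKM) were 1.19-fold (1.05 to 1.35) and 1.22-fold (1.04 to 1.43) higher.

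Cathepsins C, H and L differed least among the abundant members. Ctsc (chromosome 7, 95426603 to 95459385), the dipeptidyl peptidase that activates granule proteases, had 101.8 FPKM in control and 122.9 in knockout lungs, 1.21-fold higher (1.16 to 1.26). Ctsh (chromosome 9, 89949105 to 89970933), an aminopeptidase, had 171.3 and 190.8 FPKM, 1.11-fold higher (1.07 to 1.16). Ctsl (chromosome 13, 64464522 to 64471614), a strong endopeptidase, had 90.6 and 96.5 FPKM, 1.07-fold higher (1.01 to 1.12). These small ratios shift with the scaling of the libraries, and over the settings tried the log2 ratio ranged from 0.18 to 0.27 for Ctsc, 0.06 to 0.16 for Ctsh and 0.00 to 0.09 for Ctsl. Ctse (chromosome 1, 133534891 to 133572084), the aspartic protease of gastric and blood cells, had about 9 and 10 reads in the control and knockout pools. Its ratio of 1.30 (0.474 to 3.61) was not distinguishable from equality at this depth.

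**Figure D2:**
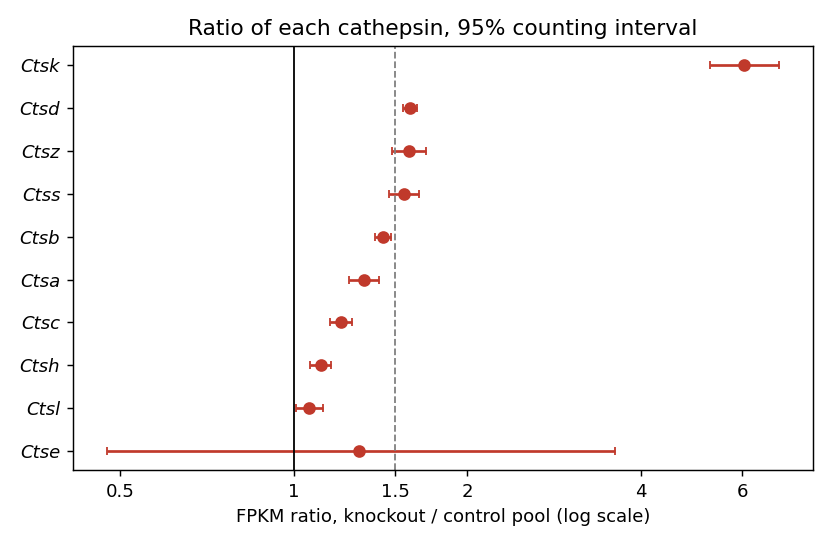
Ratio of knockout to control FPKM for each cathepsin on a log axis, with 95% counting intervals, sorted by the log2(FPKM + 1) ratio, the solid line marking equality and the dashed line a ratio of 1.5. Ctsk stands apart at 6.04, Ctsd, Ctsz and Ctss lie between 1.56 and 1.59, and the interval of Ctse spans equality.

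The order of levels can be read across genes since FPKM is per length. In the control pool it ran Ctsd, Ctsh, Ctsc, Ctss, Ctsb, Ctsl, Ctsz, Ctsa, Ctsk and Ctse, and the intervals of Ctss, Ctsb and Ctsl overlapped. In the knockout pool it ran Ctsd, Ctsh, Ctss, Ctsb, Ctsc, Ctsz, Ctsl, Ctsk, Ctsa and Ctse, with no overlap between neighbours. Ctsk thus passed Ctsa, Ctsz passed Ctsl, and Ctss and Ctsb passed Ctsc. These intervals leave out the spread between mice.

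**Figure D3:**
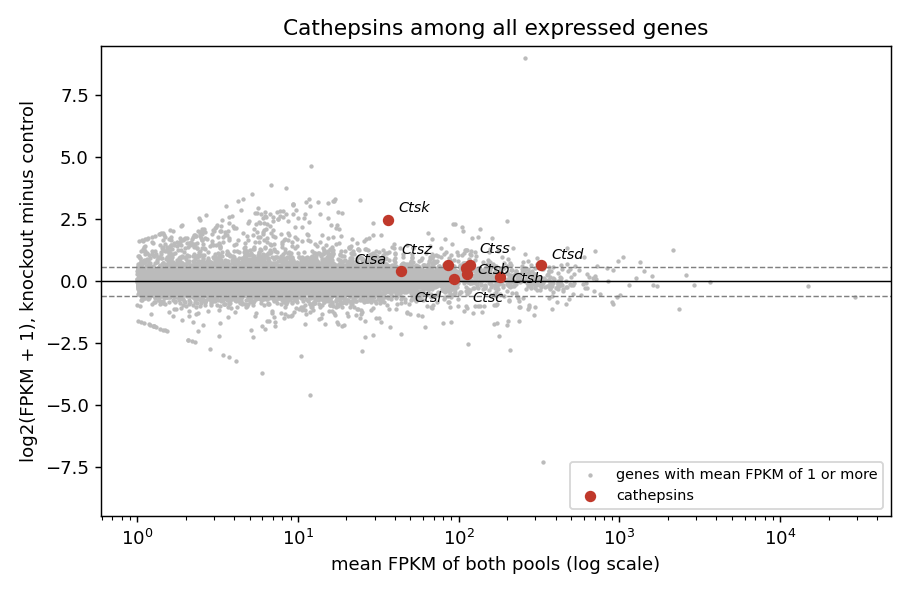
Difference in log2(FPKM + 1), knockout minus control, against mean FPKM (log axis) for the 12929 genes with a mean of 1 FPKM or more (grey) and the 9 cathepsins among them (red). Dashed lines mark 1.5-fold, and Ctsk, at 2.48, lies far above the other 8 cathepsins, which lie between 0.09 and 0.67.

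Related proteases were mixed. Counts of this list and those below are on the log2(FPKM + 1) scale, so a plain ratio can pass 1.5-fold uncounted. Beside them, 9.41% of all 12929 genes were at least 1.5-fold higher and 4.63% lower. Of 19 genes listed, 9 were over the floor, 2 of them at least 1.5-fold higher and 0 lower, with a median log2 ratio of 0.24. Lgmn encodes legumain, the asparaginyl endopeptidase that helps to process cathepsins to their mature forms. It had 53.0 FPKM in control and 94.2 in knockout lungs, 1.78-fold higher (1.67 to 1.89). Bace2, a membrane-bound aspartic protease, was 2.14-fold higher (1.83 to 2.51), while its relative Bace1 had 9.53 and 8.91 FPKM. Ctsf went the other way, from 10.8 FPKM in control to 6.997 in knockout lungs, 1.55-fold lower (1.29 to 1.87) as a plain ratio, but inside 1.5-fold on the log2(FPKM + 1) scale. Ctso, a cysteine cathepsin, was 1.12-fold lower (1.03 to 1.23). Ctsw, a cathepsin of cytotoxic lymphocytes, had 1.72 and 2.28 FPKM, within counting error. Napsa, the aspartic protease of alveolar type 2 cells, had 218.3 and 219.0 FPKM. Tinagl1, which encodes a protease-like matrix protein, was 1.23-fold higher (1.17 to 1.29), and Tinag had 5.85 and 7.10 FPKM. Of the remaining 10, 8 were listed at 0 in both pools.

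Inhibitors of cathepsins did not follow one direction. Of 21 listed, 12 were over the floor, 2 at least 1.5-fold higher and 2 lower, with a median log2 ratio of -0.12. Cst3 encodes the secreted inhibitor cystatin C, and had 609.7 FPKM in control and 691.3 in knockout lungs, 1.13-fold higher (1.10 to 1.17). Cstb, the gene of the intracellular inhibitor stefin B, had 46.9 and 83.9 FPKM, 1.79-fold higher (1.58 to 2.02). Together these cystatins had 1.18-fold more FPKM in the knockout pool, while the 7 cysteine cathepsins had 1.37-fold more, and 1.29-fold more without Ctsk. Ctla2a, a gene of a propeptide-like inhibitor of cysteine cathepsins, had 110.2 and 77.1 FPKM, 1.43-fold lower (1.34 to 1.53), and its relative Ctla2b had 14.2 and 8.28, 1.72-fold lower (1.37 to 2.17). Reads of this pair may be shared, and Ctla2b was near equality when its most abundant transcript alone was used. The plasma protein gene Ahsg was 2.95-fold higher (2.14 to 4.10), and Cst8, at 3.85 and 1.45 FPKM, was 2.65-fold lower (1.40 to 5.35). The serpin gene Serpinb1a was 1.33-fold higher (1.14 to 1.56). Serpinb6b (67.9 and 64.0 FPKM), Serpina3g (5.19 and 4.55), Fetub (2.27 and 2.82), Cst7 (1.34 and 0.858) and Stfa2l1 (1.22 and 0.903) differed by less than counting error.

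Genes of other acid hydrolases and of lysosomal lipid handling, taken as 1 list, were mostly slightly higher. Of 37, all over the floor, 32 lay above equality, 6 were at least 1.5-fold higher and 0 lower. Over all 12929 genes, 56.8% lay above equality and 9.41% were that much higher. The median log2 ratio of the 37 was 0.26, under that of the cathepsins. Prcp, the gene of a lysosomal prolylcarboxypeptidase, was highest at 2.23-fold (2.03 to 2.46), and the iduronate sulfatase gene Ids lowest, at 1.252-fold lower (1.20 to 1.31). Npc2, a cholesterol carrier, was 1.38-fold higher (1.35 to 1.42), and the ceramidase gene Asah1 was 1.43-fold higher (1.35 to 1.52). Of 21 sorting and membrane proteins of lysosomes, 2 were 1.5-fold higher and 0 lower, with a median of 0.12. The share higher, 9.52%, was near the 9.41% of all genes. The 2 were Cd68, a macrophage lysosomal protein gene at 2.22-fold (1.95 to 2.54), and Grn, the progranulin gene, at 1.56-fold (1.49 to 1.64). Grn was named after its value was seen. The prosaposin gene Psap was 1.32-fold higher (1.29 to 1.35), the membrane protein gene Lamp1 1.04-fold higher (1.01 to 1.07), and the sorting adaptor gene Gga3 lowest, at 1.20-fold lower (1.06 to 1.37).

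The list for the proton pump that acidifies lysosomes was partial, with 17 widely expressed subunit and accessory genes. These 17 lay above equality in the deposited FPKM and within 1.5-fold, with a median log2 ratio of 0.18, beside the median of 0.05 over all genes. Small ratios here shift with the scaling of the libraries. Atp6v0b, at a log2 ratio of 0.05, lay closer to equality than the 0.09 by which one scaling lowered knockout values. Of all 12929 genes, 56.8% lay above equality. Subunit genes off the list lay on both sides of equality, with Atp6v0d2 at a log2 ratio of 0.61, Atp6v0a4 at 0.48, Atp6v1g2 at -0.03, Atp6v0e2 at -0.50 and Atp6v1c2 at -0.61, named after their values were seen. On the list, Tcirg1, the subunit gene of osteoclasts and macrophages, was highest at 1.39-fold (1.27 to 1.51), and Atp6v0b lowest (86.7 and 90.1 FPKM). Atp6v0c and Atp6v1g1, the most abundant, were 1.18-fold (1.12 to 1.245) and 1.11-fold (1.04 to 1.19) higher. The 8 MiT/TFE factors and regulators of lysosomal genes were all within 1.5-fold on the log2(FPKM + 1) scale, with a median of 0.09. Tcfeb, the symbol here for TFEB, had 7.86 FPKM in control and 8.46 in knockout lungs, named after its value was seen. Tcfec was the highest (2.62 and 4.02 FPKM), 1.54-fold higher (1.12 to 2.11) as a plain ratio. Flcn, a regulator of these factors, was the lowest (18.8 and 13.5 FPKM), while Rragc, with the most FPKM, had 28.3 and 31.7.

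Genes tied to the work of single cathepsins showed different patterns. For cathepsin S, 11 of 12 MHC class II genes were over the floor and 0 were past 1.5-fold, with a median of 0.08. Cd74, which encodes the invariant chain, had 660.1 FPKM in control and 756.9 in knockout lungs, 1.15-fold higher (1.12 to 1.17). H2-Aa was 1.13-fold lower (1.08 to 1.18), H2-Eb1 was lowest at 1.29-fold lower (1.23 to 1.37), and Ifi30, a lysosomal thiol reductase gene, highest at 1.23-fold (1.12 to 1.35). For cathepsin H, the surfactant gene Sftpb was 1.15-fold lower (1.13 to 1.16). For cathepsin C, 2 of 14 granule protease genes were over the floor, Gzma (12.6 and 8.04 FPKM) and Gzmb (2.37 and 1.17 FPKM), both at least 1.5-fold lower. For cathepsin K, the list held genes of collagens, elastin, matrix proteins and a growth factor, and some are also on the fibroblast list below. Of its 8 genes over the floor, 6 were at least 1.5-fold higher and 0 lower, with a median of 1.06. Eln, the elastin gene, was 5.42-fold higher (5.23 to 5.62), Sparc 1.95-fold (1.92 to 1.98) and Bgn 1.55-fold (1.52 to 1.58) higher, and Dcn, the decorin gene, 1.31-fold lower (1.22 to 1.41).

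Marker lists of cell types are given beside these values, and their part in the cathepsin ratios was not tested. Over all 12929 genes, 9.41% were at least 1.5-fold higher and 4.63% lower. Of 22 markers of monocytes and interstitial macrophages, 11 were at least 1.5-fold higher and 0 lower, with a median of 0.55, and none was at 0. Their summed level was 671 FPKM in control and 934 in knockout lungs. Nr4a1, also an immediate early gene, was highest at 3.16-fold (2.79 to 3.59), with Apoe at 1.22-fold (1.18 to 1.27) and Tyrobp at 1.51-fold higher (1.34 to 1.71). The receptor gene Mertk was lowest, 1.51-fold lower (1.35 to 1.69) as a plain ratio, but inside 1.5-fold on the log2(FPKM + 1) scale. Of 21 alveolar macrophage markers, 8 were 1.5-fold higher and 3 lower, with a median of 0.43, sums of 696 and 855 FPKM and none at 0. Marco, a scavenger receptor gene, was 4.04-fold higher (3.30 to 4.98), Ear2 1.78-fold lower (1.51 to 2.09), Ccl6 1.84-fold higher (1.74 to 1.96) and Chi3l3 1.06-fold higher (1.03 to 1.10). Ear2 has near-identical relatives, and its reads may be divided among them. Also at least 1.5-fold lower were Ear1 (36.7 and 21.2 FPKM) and Siglec5 (5.35 and 2.76 FPKM), named after their values were seen. Sharing of reads was not tested for Ear2, Ear1 or Siglec5. Of 14 neutrophil markers, 13 were over the floor, 7 of them higher and 0 lower, with a median of 0.65 and sums of 150 and 359 FPKM. Lcn2, also made by epithelium, had 74.6 and 248.4 FPKM, 3.33-fold higher (3.10 to 3.58), and made up most of the summed difference. S100a8 was 1.41-fold higher (1.14 to 1.75), and Fpr1 had 10.4 and 8.66 FPKM.

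Osteoclast-type genes, checked for Ctsk, had 7 of 11 members over the floor, 2 of them higher and 0 lower, with a median of 0.45 and sums of 76.7 and 121 FPKM. Acp5, the gene of tartrate-resistant acid phosphatase, had 6.85 FPKM in control and 26.0 in knockout lungs, 3.80-fold higher (3.16 to 4.58). Its companion on the list was Atp6v0d2, a pump subunit gene shared with alveolar macrophages, at 1.56-fold (1.40 to 1.74). Car2, a carbonic anhydrase gene, was 1.44-fold higher (1.31 to 1.57), and the integrin gene Itgb3 was lowest (6.69 and 6.82 FPKM). The calcitonin receptor gene Calcr (0.443 and 0.412 FPKM) and the receptor gene Oscar (0.265 and 0.0485 FPKM) were under the floor in both pools, named after their values were seen.

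Fibroblasts also make cathepsin K. Of 13 fibroblast markers, 7 were at least 1.5-fold higher and 1 lower, with a median of 0.68, sums of 2256 and 2792 FPKM and none at 0. Cthrc1, a collagen-associated gene, was 4.33-fold higher (3.10 to 6.15) and Mfap4 2.32-fold higher (2.26 to 2.37), whereas Inmt was 1.90-fold lower (1.85 to 1.95). Of 8 smooth muscle markers, 3 were higher and 0 lower, with a median of 0.50 and sums of 250 and 446 FPKM, from Tagln at 71.2 and 166.3 FPKM to Itga8 at 52.6 and 42.9, with Acta2 at 66.6 and 148.6. Which of these cells held the Ctsk transcripts was not measured in whole-lung RNA.

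The remaining cell type lists had medians under the 0.51 of the cathepsins. So did the alveolar macrophage (0.43), osteoclast-type (0.45) and smooth muscle (0.50) lists above. Of 13 alveolar type 2 genes, 1 was higher and 0 lower, with a median of -0.04, and Scd1, a desaturase gene, was that one at 2.53-fold (2.49 to 2.58), while Sftpa1 was lowest at 1.49-fold lower (1.47 to 1.51). Sftpc (15925 and 13793 FPKM) and Lyz2 (3698 and 3600 FPKM) were the most abundant. Of 10 dendritic cell markers over the floor, 1 was higher, Fscn1 (4.45 and 18.8 FPKM), and 1 lower, Clec9a (9.32 and 4.91 FPKM), with a median of -0.05 and Cd24a at 107.1 and 72.0 FPKM and Irf8 at 11.5 and 13.3. Of 7 B cell markers over the floor, 1 was higher, Fcer2a (1.44 and 3.05 FPKM), and 0 lower, with a median of 0.33, Cd79a at 12.1 and 13.0 FPKM and Cd79b at 11.0 and 16.0. Of 8 club cell genes over the floor, 1 was higher and 4 lower, with a median of -0.52, from Scgb3a1 (1.58 and 3.40 FPKM) to Cbr2 (3230 and 1461 FPKM), with Scgb1a1 at 35265 and 22774. Of 14 pan-endothelial genes, 2 were higher and 4 lower, with a median of 0.07, from Emcn at 5.11-fold higher (4.71 to 5.55) to Calcrl at 3.06-fold lower (2.97 to 3.14), with Ramp2 at 422.8 and 161.4 FPKM and Egfl7 at 215.8 and 282.3. Of the gastric and erythroid genes, tied to tissues that make cathepsin E, 3 of 10 were over the floor, Hba-a1 (392.8 and 375.8 FPKM), Hbb-b1 (158.0 and 149.0 FPKM) and Alas2 (25.9 and 21.7 FPKM), all within 1.5-fold, with a median of -0.08, and 3 gastric genes were listed at 0 in both pools.

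**Figure D4:**
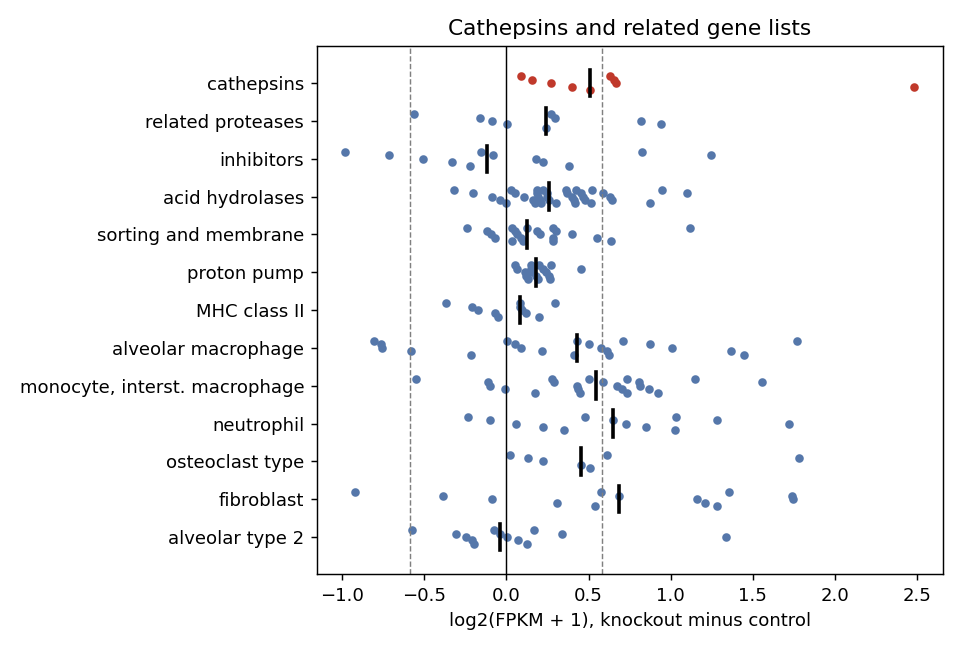
Difference in log2(FPKM + 1), knockout minus control, for each member with a mean of 1 FPKM or more of the cathepsins (red) and 12 other lists (blue), with black bars at the medians and dashed lines at 1.5-fold. The cathepsin median of 0.51 lies between those of the osteoclast-type genes (0.45) and the monocyte and interstitial macrophage markers (0.55).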

How the data were processed

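Lung RNA pooled per genotype was sequenced as 1 library each, and groups were taken from the genotype in the labels. The authors deposited FPKM values for 28107 RefSeq transcripts per library, and per the file headers also coverage, the mean read depth along each transcript. Per the submitters' processing notes, the build was mm9 and DESeq was used, in a role that is not stated. The aligner, quantifier and annotation version were likewise not given in the sources used here. Starts are printed counted from 1, because 3284 records have a length equal to end minus start and 0 have 1 more.

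FPKM values were summed per symbol. Fold changes are plain FPKM ratios. Counts of list members used log2(FPKM + 1), a scale that understates differences of low genes, a mean of 1 FPKM or more and a fold of 1.5. Reads were approximated as coverage times length, divided by the bases 1 read adds (47.6 in the knockout and 47.5 in the control library, the median of genes with 1 record between 35 and 65 bases). Exact conditional (Clopper-Pearson) 95% intervals of ratios and exact Poisson intervals of levels, which cover counting error only, came from these reads with SciPy 1.17.1, and were tested on simulated data. Older symbols were matched through RefSeq synonyms. No p-values were computed.

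The members and 22 lists were chosen with earlier results of these data known, and some lists share members. Named were all cathepsins, the related proteases and inhibitors over the floor, and of each other list the members with the highest and lowest ratio and the 2 with most FPKM, with Neu1, Glb1, Cd74 and Sftpb. Genes outside this rule are said to be named after their values were seen. Alternatives were other pseudocounts, scalings, floors, folds and choices of transcript.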

Additional observations from a re-analysis of the deposited data

How the results depend on the processing

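No paired analysis was possible because each genotype has 1 library, and no library could be left out. The log2 ratio of each of the 10 cathepsins kept its sign under the 8 alternatives of pseudocount, transcript choice and scaling, and that of Ctsk ranged from 2.29 to 2.58. The count of cathepsins at least 1.5-fold higher, 4, fell to 1 (Ctsk) under the total without the 100 most abundant genes and to 1 at a fold of 2. It was 3 under centring on the median of all genes and the upper quartile, where Ctss was at 0.57. At the lowest fold tried it was 6, with Ctsa and Ctsb added. Shares of all genes past the line are given for folds of 1.5 and 2 in the deposited FPKM alone. The counts under the other scalings and at the lowest fold have no such share beside them, so nothing is read from them. The count lower was 0 in each setting. The median log2 ratio of the cathepsins, 0.51, was 0.45 under both centring on the median of all genes and the upper quartile, 0.42 under the total without the 100 most abundant genes and 0.45 with no filter, which adds Ctse. The log2 ratio of Ctla2b, -0.72, turned to 0.0111 with the most abundant transcript alone; the cause was not tested. The scalings lowered all knockout values by at most 0.09 on the log2 scale. Depth limits Ctse, and 3 reads on a transcript of 2000 bases correspond to 0.118 FPKM in the knockout and 0.0910 in the control library.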
